A study of Mus musculus with 6 samples.

Results

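The 32 genes described here encode the Eph receptors, the ephrins, the Slits, the Robo receptors and the Slit-Robo GTPase-activating proteins (srGAPs) that the gene list of the matrices holds among its 32285 genes. They were taken from a list by their symbols: 9 EphA receptors, 5 EphB receptors, 5 ephrin-A and 3 ephrin-B ligands, 3 Slits, 4 Robos and 3 srGAPs, and all 32 were found. The rule uses symbols only and no measured value.

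Cells came from whole autonomic ganglia of postnatal day 5 mouse pups of both sexes that carried a BAC transgene for Cre and a Cre-dependent tdTomato reporter at the *Rosa* locus, and all 6 libraries share this genotype and age with no further treatment. The stellate ganglion and the lumbar chain (paravertebral) and the coeliac ganglion (prevertebral) are sympathetic, the sphenopalatine ganglion is parasympathetic, and the pelvic ganglion was sampled in 2 libraries. No sort on the reporter is described, so glia and stromal cells are present beside neurons. Stellate, sphenopalatine and pelvic 1 libraries were made in a first round, and coeliac, lumbar and pelvic 2 libraries in a second round at another facility with another version of the 10x kit and another sequencer. Only the pelvic ganglion has more than 1 library, and how many animals entered a library is not given in the sources used here. Between pelvic and sympathetic neurons, p-values therefore measure the spread between libraries around a term for the round, in which ganglion and animals are mixed. For cell classes and pelvic clusters, fitted with the library as a term, they measure how far a difference varies between libraries. Among the classes, ganglion, round and animals are mixed in that variation.

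Eph receptors are receptor tyrosine kinases whose ephrin ligands sit in the membrane of a neighbouring cell, the ephrin-As by a lipid anchor and the ephrin-Bs by a transmembrane domain, so that signals run in both directions at cell contacts. The usual outcome is repulsion, which steers axons, keeps cell populations apart and shapes synapses and vessels. Slits are secreted ligands for Robo receptors and repel growing axons and migrating cells, and srGAPs bind Robo tails and act on small GTPases and on membrane shape. In the peripheral nervous system these families are best known for patterning neural crest streams and axon paths, and in vessels the pair *Efnb2* and *Ephb4* is the textbook mark of arteries and veins.

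Promoters of 4 members with different leading classes are shown: *Robo4*, *Ephb4* and *Efna1* were highest in endothelial cells, and *Efna3*, the chromosomal neighbour of *Efna1*, was highest in neurons. Each is the 250 bases before the start of a RefSeq transcript on GRCm38.p6, written 5′ to 3′ on the gene's own strand: *Robo4* at chr9:37401722-37401971 (+ strand), *Ephb4* at chr5:137349859-137350108 (+), *Efna1* at chr3:89280952-89281201 (−) and *Efna3* at chr3:89322940-89323189 (−). Capitals mark the hexamers CCGGAA or CAGGAA read on either strand, the core letters of many ETS-family sites.
Robo4: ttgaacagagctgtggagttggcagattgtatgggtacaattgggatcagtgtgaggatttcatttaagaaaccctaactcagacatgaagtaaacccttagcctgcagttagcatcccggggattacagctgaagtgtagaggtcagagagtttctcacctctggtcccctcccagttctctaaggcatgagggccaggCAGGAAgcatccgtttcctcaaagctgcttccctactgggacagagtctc
Ephb4: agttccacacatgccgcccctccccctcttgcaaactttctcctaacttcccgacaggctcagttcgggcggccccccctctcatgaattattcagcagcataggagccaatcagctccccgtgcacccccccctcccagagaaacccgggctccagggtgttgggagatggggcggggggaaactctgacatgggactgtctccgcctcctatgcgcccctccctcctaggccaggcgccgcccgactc
Efna1: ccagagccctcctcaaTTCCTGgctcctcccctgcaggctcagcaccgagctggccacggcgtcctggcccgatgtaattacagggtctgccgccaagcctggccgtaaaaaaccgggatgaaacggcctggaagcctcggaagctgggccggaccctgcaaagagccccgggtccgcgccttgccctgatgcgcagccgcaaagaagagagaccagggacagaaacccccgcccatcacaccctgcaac
Efna3: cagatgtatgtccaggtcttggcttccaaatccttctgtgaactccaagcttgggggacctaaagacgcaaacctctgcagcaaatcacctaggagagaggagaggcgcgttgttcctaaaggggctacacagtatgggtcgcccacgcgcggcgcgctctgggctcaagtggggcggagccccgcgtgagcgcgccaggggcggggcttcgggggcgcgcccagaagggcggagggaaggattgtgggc

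A hexamer of this kind stood in the *Robo4* and *Efna1* windows and in neither of the other two. It was found in 8 of the 30 members with a promoter in the RefSeq table and in 35.1% of all 32851 promoters of the same length, so its share among the members was no larger than among promoters at large. *Efna1*, *Efna3* and *Efna4* lie in a row on chromosome 3, with 32.8 kb between the first 2 and 10.4 kb between the last 2, and *Robo4* and *Robo3* lie tail to tail on chromosome 9 with 553 bases between them.

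After the filters of the study's methods (more than 1500 and fewer than 11000 genes, under 15% mitochondrial UMIs), 21442 cells were kept, with median depths of 5814 to 18528 UMIs a cell per library. They comprised 7022 neurons, 7273 glia, 2871 fibroblasts, 725 endothelial cells, 615 mural cells and 533 macrophages, besides cycling, myelinating, unnamed and excluded cells. The clusters behind these classes were built without the 32 genes. Ganglion labels matched their transmitter genes: *Th*, which makes catecholamines, was at 451 to 995 CPM (counts per 1000000 UMIs of the summed cells) in neurons of the 3 sympathetic libraries and at 1.85 in sphenopalatine neurons, which had *Chat* at 24.6. RNA of neurons was found in every other class: in glia, the 4 neuronal markers stood at 3.20% (pelvic 2) to 17.6% (stellate) of their neuronal level. No pair of libraries shared more than 49 cell barcodes. CPM are read at the 3′ end and not scaled by gene length, so they compare 1 gene between cells rather than genes with each other.

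The 32 genes divided among the cell classes (plot of median levels by class). A median of at least 10 CPM over the 6 libraries was reached by 13 members in neurons, 13 in glia, 17 in fibroblasts, 10 in endothelial cells, 11 in mural cells and 2 in macrophages. The last 2 counts include *Epha5*. In mural cells it stood at 1.08% (coeliac) to 9.81% (stellate) of its neuronal level, beside 1.05% and 13.2% for the neuronal markers there. The lumbar library had 4.10% beside 1.88%. By median, 9 members were highest in neurons, 9 in endothelial cells, 6 in glia, 4 in fibroblasts, 3 in mural cells and 1 in macrophages. Of the EphA receptors, *Epha5* was highest in neurons, *Epha7* in glia, *Epha3* in mural cells and fibroblasts and *Epha2* in endothelial cells. Among the ligands, *Efna5* and *Efna3* were highest in neurons, *Efnb1* in fibroblasts and glia, and *Efna1* and *Efnb2* in endothelial cells. *Epha1*, *Epha6*, *Epha8*, *Robo3* and *Slit1* were near the limit of detection, with no class median above 1.21 CPM, and that highest value, *Slit1* in macrophages, rests on 7 UMIs in all.

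**Figure D1:**
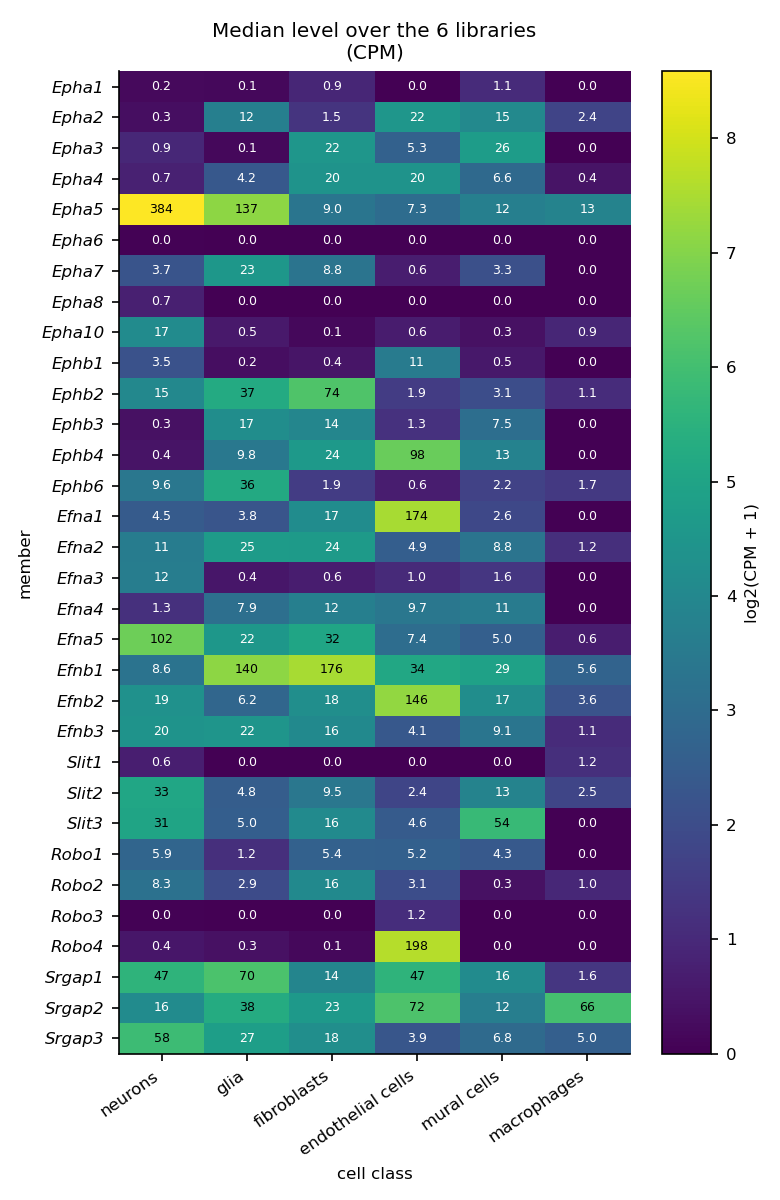
Median level over the 6 libraries of each of the 32 genes (rows) in 6 cell classes (columns), in CPM, printed in each cell and coloured as log2(CPM + 1). Rows peak in different columns, as for *Epha5* in neurons (384), *Robo4* in endothelial cells (198), *Efnb1* in fibroblasts (176) and *Efna1* in endothelial cells (174).

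Glia were compared with neurons first, over the 6 libraries with the library as a block. Of the 28 members that passed the filter on low counts, 11 were higher in glia and 12 were lower (edgeR quasi-likelihood test, adjusted p under 0.05), beside 32.2% and 39.4% of all 14939 genes tested, so most genes of any kind differed between these classes. Log2 differences are given ± SE. The median log2 difference was -0.31 over the members and -0.14 over all genes. *Epha6*, *Epha8*, *Robo3* and *Slit1* did not pass the filter.

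Among EphA receptors, *Epha5* and *Epha10* were the neuronal ones with a sizeable level. *Epha5*, a receptor for ephrin-As on many central and peripheral axons, stood in neurons at 350.1 CPM in stellate, 465 in coeliac, 501 in lumbar, 293 in pelvic 1, 411 in pelvic 2 and 356 in sphenopalatine, and in glia at 71.2, 167, 146, 128, 266 and 96.6 in the same order. Every value of these pooled neurons was above every glial one (log2 difference -1.66, SE 0.29, edgeR adjusted p = 3.2e-06). The P3-like pelvic neurons described below were at 185 in pelvic 2, below the 266 of glia in that library. The glial level came to between 20.3% (stellate) and 64.6% (pelvic 2) of the neuronal one, against 17.6% and 3.20% for the neuronal markers in the same glia, so the stellate value was near the neuronal RNA measured there and the other 5 were above it. *Epha10*, whose kinase is inactive, was at 5.27 to 21.8 in neurons and at 0 to 2.41 in glia (-4.69 ± 0.38), and its glial level was below the neuronal marker share in all 6 libraries. *Epha7* went the other way in most ganglia, with 12.4 to 40.9 in glia, but neurons of the sphenopalatine library were at 78.7 and the ranges overlap (log2 difference 1.48, SE 0.46, edgeR adjusted p = 0.0041). This call was lost without the pelvic 1 library (log2 difference 1.12, edgeR adjusted p = 0.058) and with no library block (0.34, 0.64). *Epha2* (5.08 ± 0.26) and *Epha4* (1.98 ± 0.40) were higher in glia, and *Epha3* (-3.35 ± 0.70) was higher in neurons, where it reached only 1.20 CPM. *Epha1* did not pass the test (log2 difference -0.19, SE 0.73, edgeR adjusted p = 0.83).

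Of the 5 EphB receptors, 4 were higher in glia than in neurons. *Ephb3* was at 0.111 to 0.714 in neurons and 9.66 to 25.2 in glia (log2 difference 5.21, SE 0.30, edgeR adjusted p = 1.1e-19), and *Ephb4* at 0.235 to 0.612 and 8.70 to 11.7 (4.58 ± 0.19). *Ephb6*, which lacks kinase activity, was at 29.4 to 37.0 in glia and 5.95 to 11.0 in neurons (1.76 ± 0.25), and *Ephb2* at 21.6 to 51.8 and 11.5 to 20.1 (0.95 ± 0.22). With neurons pooled per library, the groups do not overlap for *Ephb3*, *Ephb4*, *Ephb6* or *Ephb2*. How many of all genes show no such overlap between glia and neurons was not counted. The noradrenergic P3-like pelvic neurons described below held *Ephb6* at 25.4 in pelvic 1 and 34.2 in pelvic 2, the latter within the glial range. *Ephb1* was the exception, higher in neurons (-3.73 ± 0.58) and at most 0.920 CPM in glia.

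The ligands split by class as well. *Efna5*, a repellent for EphA-bearing axons, was at 137 CPM in stellate, 135 in coeliac, 100.3 in lumbar, 103 in pelvic 1, 76.3 in pelvic 2 and 74.5 in sphenopalatine neurons. It was at 18.1 to 29.9 in glia (log2 difference -2.36, SE 0.21, edgeR adjusted p = 1.8e-13). Its glial level was 16.5% to 28.6% of the neuronal one. *Efna3* was at 7.14 to 16.0 in neurons and 0.322 to 1.95 in glia (-4.14 ± 0.44). Its neighbour *Efna4* went in the opposite direction, 0.860 to 2.25 in neurons and 6.32 to 9.44 in glia (2.33 ± 0.24), and *Efna2* rose in glia by a smaller amount (0.91 ± 0.22). *Efna1* was at 2.19 to 7.33 in neurons and 1.85 to 7.59 in glia and did not pass the test (log2 difference -0.43, SE 0.22, edgeR adjusted p = 0.068).

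*Efnb1*, a ligand of EphB receptors, was at 146 CPM in the stellate, 95.3 in the coeliac, 144 in the lumbar, 139 in the pelvic 1, 109 in the pelvic 2 and 142 in the sphenopalatine library in glia, against 6.26 to 11.5 in neurons (log2 difference 3.69, SE 0.16, edgeR adjusted p = 7.7e-24). *Efnb2* was higher in neurons (19.1 against 6.17, -1.95 ± 0.23). *Efnb3* was at 7.27 to 30.1 in neurons and 17.9 to 28.0 in glia and did not pass the test (edgeR adjusted p = 0.59). The test averages over ganglia that differ for this gene. Glia were above pooled neurons in both pelvic libraries and in the sphenopalatine one, and below them in the 3 sympathetic libraries. The noradrenergic P3-like pelvic neurons described below held *Efnb3* at 32.7 in pelvic 1 and 21.7 in pelvic 2, no lower than glia of the same library.

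Slits and Robos were low in glia. *Slit2* was at 13.7 to 118 in neurons and 2.53 to 11.5 in glia (log2 difference -2.94, SE 0.34, edgeR adjusted p = 2.1e-10), and *Slit3* at 14.6 to 54.7 and 2.06 to 7.22 (-2.88 ± 0.20), with no overlap between the classes in either. Glial *Slit2* stood at 18.5% of the neuronal level in the stellate and 9.79% in the sphenopalatine library, near the 17.6% and 10.1% of the neuronal markers there. It stood at 24.8% in the coeliac, 14.8% in the lumbar, 13.9% in the pelvic 1 and 14.8% in the pelvic 2 library, above the 4.13%, 3.46%, 7.44% and 3.20% of the markers. *Robo1* (-2.39 ± 0.47) and *Robo2* (-1.19 ± 0.29) were also lower in glia, although stellate neurons held as little *Robo2* (1.84) as stellate glia (1.84). *Robo4* was below 1 CPM in both classes and did not pass the test (adjusted p = 0.15, edgeR).

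**Figure D2:**
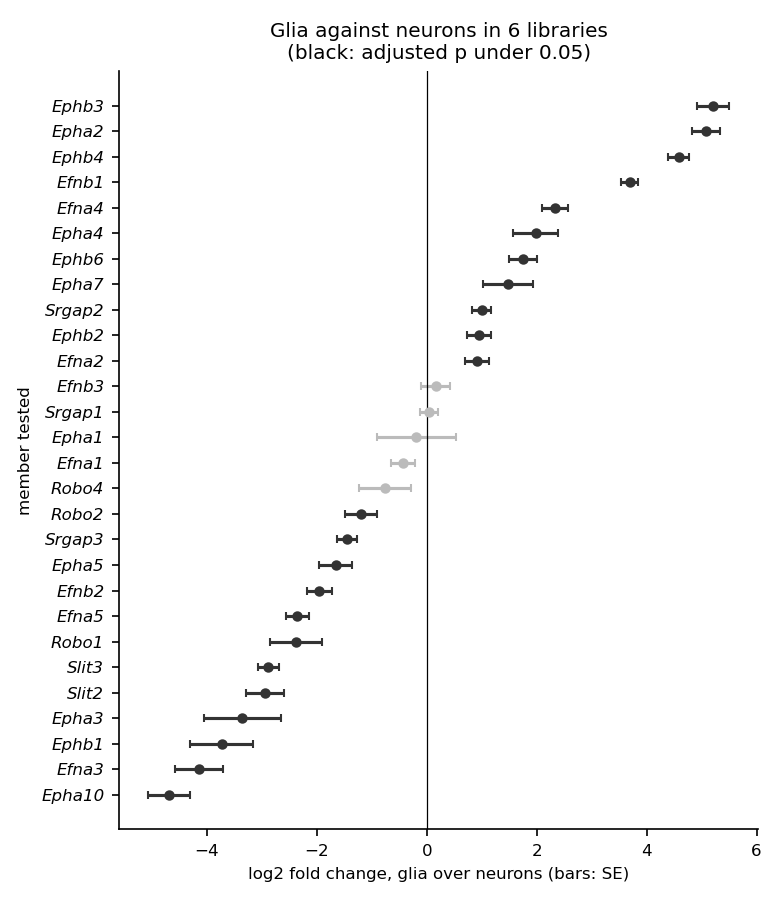
Log2 fold change of glia over neurons (x axis, bars are SE from edgeR, 6 libraries with the library as a block) for the 28 members tested (y axis, ordered by value). Black points passed an adjusted p of 0.05 and grey points did not; *Ephb3* (5.21) and *Epha2* (5.08) lie at the glial end, and *Epha10* (-4.69) and *Efna3* (-4.14) at the neuronal end.

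Fibroblasts differed from neurons in 23 of the 28 members, 13 higher and 10 lower, beside 33.9% and 39.9% of all genes. *Efnb1* was at 167 to 192 CPM in the 6 libraries, above glia in all 6 (log2 difference 4.28, SE 0.16, edgeR adjusted p = 7.3e-26). *Ephb2* stood at 24.4 CPM in the stellate, 80.5 in the coeliac, 66.6 in the lumbar, 70.2 in the pelvic 1, 86.2 in the pelvic 2 and 77.0 in the sphenopalatine library, so 5 libraries lay close together and the stellate one was below them (2.01 ± 0.22 against neurons). Further receptors were also higher than in neurons: *Ephb3* (5.09 ± 0.30), *Ephb4* (5.94 ± 0.19), *Epha4* (4.34 ± 0.40) and *Epha3* (3.92 ± 0.40). *Epha3* varied widely between libraries, from 1.02 in stellate to 37.9 in pelvic 2 fibroblasts. These libraries differ in round and in fibroblast make-up as well as in ganglion. A cluster with 636 stellate fibroblasts held 0 from pelvic 2, and a cluster with 314 from pelvic 2 held 1 from the stellate library. *Robo2* was higher than in neurons (1.18 ± 0.27) at 7.13 to 48.2, while *Robo1* did not pass the test (2.80 to 17.0, adjusted p = 0.9, edgeR). *Epha1* was called higher (2.25 ± 0.57) at levels of only 0.440 to 2.02. Lower than in neurons were *Epha5* (-5.48 ± 0.36), *Epha10* (-5.11 ± 0.42), *Efna3* (-3.42 ± 0.43) and 7 more, and *Epha7*, *Efnb2*, *Efnb3* and *Robo4* joined *Robo1* among the 5 that did not pass.

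Against glia, fibroblasts were higher in 14 and lower in 6 of the 28 members, beside 24% and 26.6% of all genes. On the fibroblast side *Epha3* had the largest difference, at 1.02 to 37.9 in fibroblasts and 0 to 0.232 in glia (log2 difference 7.27, SE 0.59, edgeR adjusted p = 4.6e-14), followed by *Robo1* (2.45 ± 0.49), *Epha1* (2.44 ± 0.71, at low levels), *Robo2* (2.37 ± 0.30), *Epha4* (2.36 ± 0.38) and *Efna1* (2.35 ± 0.22). Glia were the higher class for *Ephb6* (-3.95 ± 0.31), *Epha5* (-3.82 ± 0.35), *Epha2* (-2.85 ± 0.27), *Srgap1* (-2.01 ± 0.18) and *Epha7* (-1.51 ± 0.46). *Ephb3* and *Efna2* were among 8 members that did not pass (edgeR adjusted p = 0.72 and 0.79), with *Ephb3* at 7.13 to 21.8 in fibroblasts and 9.66 to 25.2 in glia. *Slit2* and *Efna5*, called higher in fibroblasts, lost the call without the pelvic 2 library (adjusted p = 0.13 and 0.062, edgeR).

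Endothelial cells carried the vascular members at the highest levels. *Robo4*, the endothelial Robo, was at 237 CPM in the stellate, 204 in the coeliac, 203 in the lumbar, 165 in the pelvic 1, 165 in the pelvic 2 and 194 in the sphenopalatine library, and none of the 5 other classes plotted exceeded 1.28 in any library (log2 difference 8.74, SE 0.27, edgeR adjusted p = 7.4e-24). *Robo3*, its neighbour on the chromosome, was at 0 to 2.41 in the same cells. *Ephb4*, the venous receptor, was at 84.2 to 108, against 0.235 to 0.612 in neurons (log2 difference 7.77, SE 0.20, edgeR adjusted p = 2.2e-31), and it also reached 18.6 to 29.1 in fibroblasts. *Efna1* was at 263 CPM in the stellate, 146 in the coeliac, 141 in the lumbar, 243 in the pelvic 1, 103 in the pelvic 2 and 203 in the sphenopalatine library (5.01 ± 0.21 against neurons), while *Efna3* next to it was at 0 to 3.51 (-3.29 ± 0.49). *Efnb2*, the arterial ligand, was at 65.4 CPM in the stellate, 212 in the coeliac, 217 in the lumbar, 94.3 in the pelvic 1, 198 in the pelvic 2 and 81.5 in the sphenopalatine library (2.49 ± 0.21).

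*Efna1* and *Efnb2* both split by round in these cells, in opposite directions. The 3 first-round libraries held 203 to 263 *Efna1* and 65.4 to 94.3 *Efnb2*, and the 3 second-round libraries 103 to 146 and 198 to 217. Between the 2 pelvic libraries, which share the ganglion, *Efnb2* was 2.10-fold higher in pelvic 2, so its levels in ganglia of different rounds cannot be told apart from the round. The 2 libraries also differ in endothelial make-up. A smaller cluster, described at the end and higher in both genes within pelvic 1, gave 41 cells to pelvic 1 and 1 to pelvic 2. Over all 28 members, 12 were higher in endothelial cells than in neurons and 14 lower, beside 33% and 41.8% of all genes. The higher ones included *Epha2* (6.04 ± 0.27), *Epha4* (4.21 ± 0.41), *Ephb1* (1.43 ± 0.44) and *Epha3* (2.00 ± 0.45), and the lower ones *Epha5* (-5.82 ± 0.39), *Epha7* (-3.89 ± 0.81), *Ephb2* (-3.14 ± 0.35), *Ephb6* (-3.50 ± 0.44) and *Slit2* (-3.94 ± 0.43). *Efnb3* (-2.42 ± 0.34) and *Efna5* (-4.04 ± 0.26) were lower too. *Epha1* and *Robo1* were the 2 members that did not pass (edgeR adjusted p = 0.55 and 0.6).

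**Figure D3:**
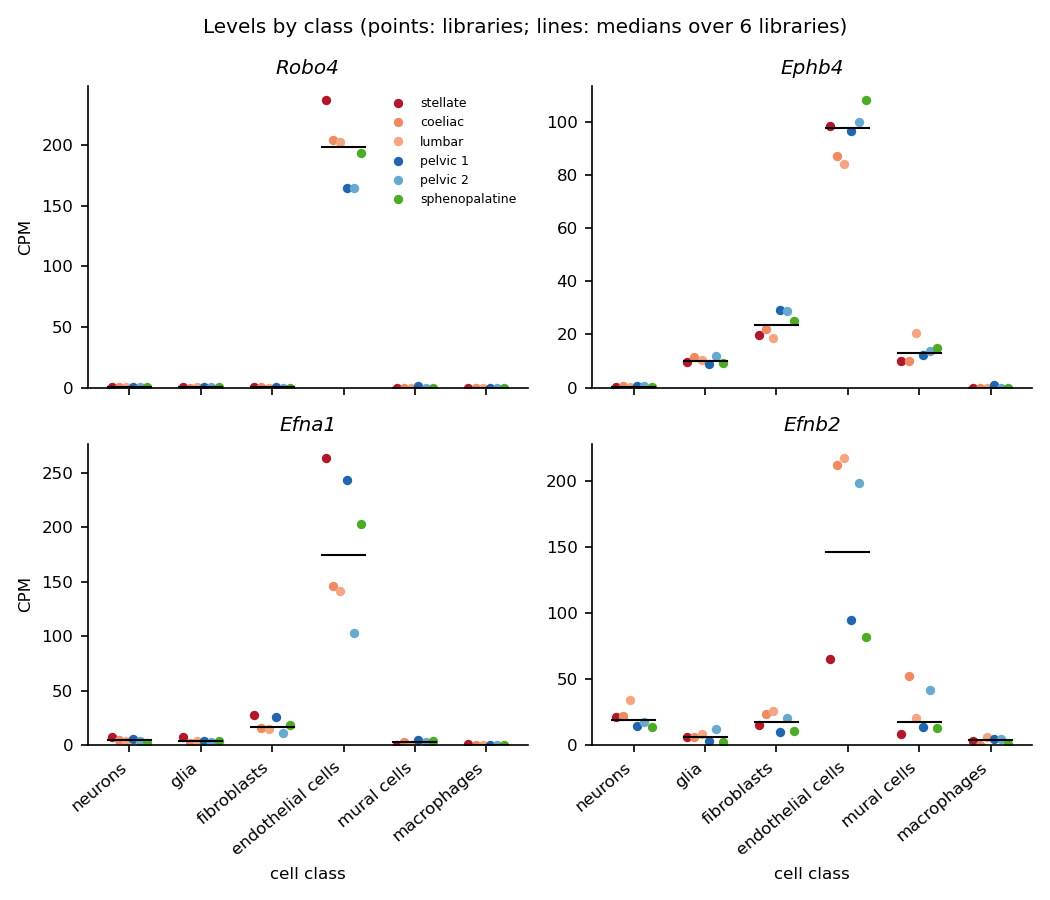
Levels of *Robo4*, *Ephb4*, *Efna1* and *Efnb2* (y axes, CPM, from 0) in 6 cell classes (x axis), with 1 point for each of the 6 libraries and a line at their median. Endothelial points lie above those of every other class in all 4 panels, and for *Efnb2* the second-round libraries (coeliac, lumbar, pelvic 2) lie at 198 or more, above the first-round ones.

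Mural cells, a class of pericytes and smooth muscle, were measured in 27 to 269 cells a library. They were higher than neurons in 8 and lower in 12 of the 28 members, beside 27.8% and 37.8% of all genes. *Epha3* (2.02 to 53.0 CPM, 4.24 ± 0.45), *Epha2* (7.03 to 27.5, 5.45 ± 0.32), *Ephb4* (4.89 ± 0.27) and *Efna4* (2.84 ± 0.32) were among the higher ones. *Slit3*, which is known from vascular smooth muscle and diaphragm development, was at 16.2 CPM in the stellate, 70.1 in the coeliac, 61.6 in the lumbar, 47.3 in the pelvic 1, 82.6 in the pelvic 2 and 9.36 in the sphenopalatine library. Its median of 54.4 was above that of every other class, but the difference from neurons did not pass the test (log2 difference 0.21, SE 0.20, edgeR adjusted p = 0.36). Neurons held 14.6 to 54.7. *Epha5* (-5.19 ± 0.43), *Efna5* (-4.84 ± 0.35), *Srgap3* (-3.16 ± 0.28) and *Robo2* (-2.96 ± 0.62) were lower than in neurons. The calls for *Epha1* (2.34 ± 0.93, at 0 to 4.04) and *Ephb1* (-2.56 ± 0.90, at 0 to 4.04) rest on few UMIs: the first was lost without the pelvic 1 (log2 difference 2.28) or the stellate library (1.61), and the second without the pelvic 1 (-1.82), pelvic 2 (-1.90) or sphenopalatine library (-2.22).

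The 3 srGAPs, which act below Robos, differed in their leading class. *Srgap3* was highest in neurons in all 6 libraries, at 48.2 to 72.7 against 12.7 to 41.9 in glia (log2 difference -1.46, SE 0.19, edgeR adjusted p = 2.8e-09) and 1.59 to 7.01 in endothelial cells. *Srgap1* was at 38.2 to 83.0 in neurons and 32.2 to 103 in glia, which the test did not separate (adjusted p = 0.83, edgeR). *Srgap2*, known for its part in neuronal branching and spine shape, was lower in neurons than in glia and endothelial cells: 9.72 to 26.3 there, 17.2 to 75.7 in glia (1.00 ± 0.17), 48.1 to 103 in endothelial cells (1.85 ± 0.18) and, untested, 38.9 to 126 in macrophages.

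Values of *Srgap1* and *Srgap2* followed the round. In glia, *Srgap1* was at 32.2 to 42.1 in the first round and 98.1 to 103 in the second, and pelvic 2 glia held 2.44 times the level of pelvic 1 glia. The second round lay above the first without overlap for *Srgap1* in 4 of the 5 classes of neurons, glia, fibroblasts, endothelial and mural cells, and for *Srgap2*, *Slit3*, *Efnb2* and *Ephb3* in 3 of 5. The reverse held for *Efna1* in 3 of 5, and 16 of the 32 members overlapped between rounds in all 5 classes. The 16 include *Epha6*, *Epha8*, *Robo3* and *Slit1*, which were near the limit of detection. Splits over several classes were not counted for all genes, so only the shares within each class, given next, have a background. In glia, 9 of the 22 with a mean of at least 1 CPM lay above and 1 below in the second round, beside 33.4% and 28.2% of all 13124 genes at that level. Above and below numbered 3 and 0 of 21 in neurons (all genes 23.1% and 17.4%), 7 and 2 of 25 in fibroblasts (25.8% and 21.9%), 4 and 2 of 26 in endothelial cells (25.5% and 16.7%) and 4 and 1 of 26 in mural cells (16.7% and 16.5%). Class differences were fitted with the library as a block, whereas comparisons of these genes between single libraries carry the round.

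With the neurons of each library pooled, those of the sphenopalatine ganglion stood apart in 2 members, *Epha7* and *Slit2* (plot of neurons by library). *Epha7*, a receptor for ephrin-As, was at 78.7 (exact Poisson 95% interval 76.7 to 80.7) CPM there, and at 4.28 in stellate, 3.17 in coeliac, 7.08 in lumbar, 2.27 in pelvic 1 and 1.76 in pelvic 2 neurons. Within the first round this was 18.4 times the stellate and 34.6 times the pelvic 1 level. With every neuron thinned to 4000 UMIs, 26.4% of 1884 sphenopalatine neurons had an *Epha7* UMI and at most 2.59% in the other 5 libraries, after 10 sphenopalatine and 5 to 41 other neurons a library were left out as too shallow. Without thinning, at a median depth of 38224 UMIs, the share was 88.4%, beside 3.15% of the endothelial cells of that library at a median of 13131. Sphenopalatine glia did not share the high level, at 15.2 against 12.4 to 40.9 in glia overall.

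*Slit2* was at 118 (exact Poisson 95% interval 115 to 120.0) in sphenopalatine neurons, 45.1 and 36.0 in the pelvic libraries, 29.3 in lumbar, 15.8 in coeliac and 13.7 in stellate neurons. That is 8.58 times the stellate and 2.60 times the pelvic 1 level of the same round. The pooled pelvic values cover unlike neurons: the noradrenergic P3-like ones described below held *Slit2* at 95.1 in pelvic 1 and 118 in pelvic 2. A high *Slit2* level was therefore not particular to sphenopalatine neurons. *Robo1*, its receptor, was also present there, at 14.2, while *Robo2* was at 2.95, below every neuron library but the stellate one. *Epha4* had its highest neuronal value in this library too, at 2.74 against at most 0.911 elsewhere. With 1 sphenopalatine library there is no test, and the intervals cover counting error only.

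**Figure D4:**
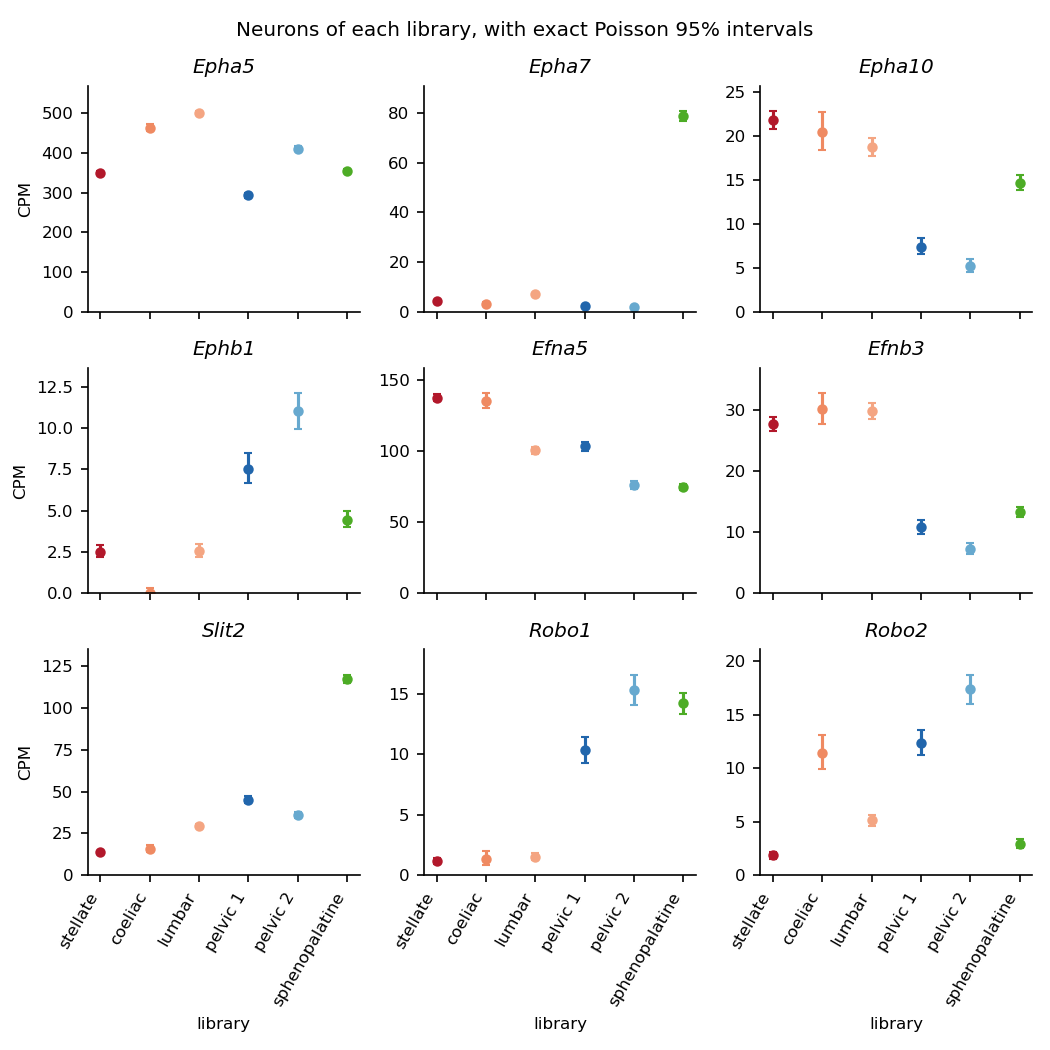
Levels of 9 members in the neurons of each of the 6 libraries (x axis), in CPM from 0 (y axes differ), with exact Poisson 95% intervals that cover counting error only. Sphenopalatine neurons lie highest for *Epha7* (78.7) and *Slit2* (118), and both pelvic libraries lie above the 3 sympathetic ones for *Robo1* and below them for *Efnb3* and *Epha10*.

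Pelvic neurons (2 libraries) were compared with sympathetic neurons (stellate, coeliac and lumbar) with the round as a term. Of the 29 members tested, 5 were higher and 6 lower in pelvic neurons, beside 10.4% and 8.33% of all 15710 genes. This count rests on few libraries: it was 3 without the stellate, 3 without the pelvic 1, 3 without the pelvic 2 and 15 without the coeliac library, and 3 with no term for the round. *Robo1*, *Efnb3* and *Epha10* were called in every one of these fits. The fits without the stellate and without the pelvic 1 library are not separate checks. With the round as a term, both compare pelvic 2 with coeliac and lumbar neurons.

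*Robo1* was at 10.3 and 15.3 CPM in pelvic neurons and at 1.17, 1.33 and 1.53 in stellate, coeliac and lumbar neurons (log2 difference 3.27, SE 0.19, edgeR adjusted p = 9.6e-05). The log2 ratio was 3.14 within the first round (pelvic 1 over stellate) and 3.41 within the second (pelvic 2 over the mean of coeliac and lumbar). *Efnb3*, an ephrin-B of neurons and midline cells, was lower in pooled pelvic neurons, at 10.8 and 7.27 against 27.6, 30.1 and 29.8 (log2 difference -1.74, SE 0.18, edgeR adjusted p = 8.0e-04). Its log2 ratios were -1.36 and -2.04 within the rounds. In the noradrenergic pelvic neurons described below, *Efnb3* values lay on either side of the sympathetic ones. *Epha10* was at 7.40 and 5.27 against 21.8, 20.5 and 18.7 (log2 difference -1.75, SE 0.15, edgeR adjusted p = 4.2e-04, within-round log2 ratios -1.56 and -1.90). Pelvic and sympathetic libraries do not overlap in any of the 3.

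*Robo2* was at 12.4 and 17.4 in pelvic neurons, just above coeliac (11.5) and further above lumbar (5.12) and stellate (1.84) neurons (log2 difference 1.81, SE 0.42, edgeR adjusted p = 0.024, within-round log2 ratios 2.75 and 1.07). *Slit2* (1.11 ± 0.32, within rounds 1.72 and 0.67) did not overlap between the groups, and *Slit3* (0.59 ± 0.15, 0.84 and 0.40) and *Srgap2* (0.83 ± 0.19, 1.03 and 0.67) did. On the lower side, *Efna5* (-0.54 ± 0.15, edgeR adjusted p = 0.048) and *Efna4* (-1.05 ± 0.29, 0.047) were close to the threshold, and *Slit1* (-3.45 ± 0.74) and *Epha8* (-2.43 ± 0.52) were called at levels of at most 2.29 CPM. All 8 of these calls were lost without the stellate or either pelvic library. They rest on pooled pelvic neurons, whose clusters, described below, differ. In pelvic 1 and pelvic 2, *Robo2* was at 43.6 and 53.4 in P4-like neurons and at 3.62 and 5.95 in P2-like ones. *Slit2* was highest in the P3-like cluster, at 95.1 and 118. The lower *Efna5* level holds for pooled pelvic neurons only. In the noradrenergic P3-like neurons described below it was at 159 and 146, above every sympathetic library, a difference that was not tested. *Ephb1*, at 7.54 and 11.0 against 2.52, 0.0556 and 2.57, did not pass the test (log2 difference 2.27, SE 0.71, edgeR adjusted p = 0.067), and neither did *Epha5* (-0.25 ± 0.13, edgeR adjusted p = 0.25). Among the 21 members with a mean of at least 1 CPM in these 5 libraries, both pelvic values lay above the 3 sympathetic ones in 4 and below them in 7, beside 17.0% and 16.1% of all 13068 genes at that level.

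Within the pelvic ganglion, neuron clusters carried the markers of the 4 classes of the study: P1-like (551 cells), P2-like (350), P3-like (163) and P4-like (97). P1-like neurons join 2 clusters, of 428 cells led by *Vip*, *Pcp4l1* and *Nos1* and of 123 cells led by *Cartpt*, *Vip* and *Nrn1*. They are treated as 1 cluster below, and levels in each part were not taken. A glial-gene-led cluster of 83 cells was left unnamed. The clustering did not use the 32 genes, but it was drawn from other genes of the same cells, so the p-values below do not rest on an independent grouping. P3-like neurons were the noradrenergic ones, with *Th* at 501 and 515 CPM in pelvic 1 and pelvic 2, and *Chat*, which makes acetylcholine, was at 47.0 and 30.8 in P1-like, 82.6 and 60.9 in P2-like and 68.6 and 66.7 in P4-like neurons. Each cluster was tested against the mean of the other 3 over both libraries, with the library as a term, and 21 of the 32 members passed the filter. The 4 tests share cells, so a gene high in 1 cluster lowers the contrast of the others.

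P3-like neurons were higher in 9 and lower in 3 of the 21 members, beside 12.2% and 12.4% of all 13264 genes. *Efnb3* was at 32.7 and 21.7 in P3-like neurons of pelvic 1 and pelvic 2, at 9.59 and 6.60 in P1-like, 3.80 and 3.74 in P2-like and 8.48 and 4.26 in P4-like ones (log2 difference 2.23, SE 0.17, edgeR adjusted p = 4.7e-08). Neurons of the 3 sympathetic libraries were at 27.6 to 30.1. *Ephb6* was at 25.4 and 34.2 in P3-like neurons and between 3.12 and 8.70 in the other clusters (log2 difference 2.37, SE 0.16, edgeR adjusted p = 1.4e-08). Here the 3 sympathetic libraries were at 8.82 to 11.0, below both P3-like values. *Slit2* (95.1 and 118, 1.72 ± 0.14), *Robo1* (31.4 and 53.2, 2.00 ± 0.16), *Efna5* (159 and 146, 1.05 ± 0.12) and *Robo2* (0.94 ± 0.16) were higher as well. So were *Epha3* (2.04 ± 0.61, at 1.74 and 3.97), *Efnb1* (0.89 ± 0.17) and *Srgap1* (0.49 ± 0.13). The *Epha3* call was lost with DESeq2 (DESeq2 adjusted p = 0.068). *Efnb2* was lower, at 3.49 and 6.36 (log2 difference -2.00, SE 0.21, edgeR adjusted p = 1.8e-06), as were *Ephb1* (0.194 and 0) and *Epha5* (154 and 185, -0.98 ± 0.11). Both *Epha5* values were also below those of every sympathetic library, a difference that was not tested.

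P1-like neurons differed in 8 members, 3 higher and 5 lower (background 7.91% and 5.58%). *Ephb1* was their leading member, at 17.2 and 18.3 CPM in the 2 libraries, 5.78 and 11.1 in P4-like, 0.272 and 0.117 in P2-like and 0.194 and 0 in P3-like neurons (log2 difference 4.88, SE 0.28, edgeR adjusted p = 5.0e-09). No value of the P2- and P3-like clusters overlapped those of P1- and P4-like neurons. *Efnb2* (0.66 ± 0.14) and *Epha5* (0.49 ± 0.10) were higher by smaller amounts. *Robo1* (-1.13 ± 0.17), *Efna1* (-1.06 ± 0.20), *Efnb1* (-0.81 ± 0.16), *Robo2* (-0.52 ± 0.15) and *Slit2* (-0.45 ± 0.14) were lower. The *Robo2* and *Slit2* calls were lost with DESeq2 (DESeq2 adjusted p = 0.14 and 0.12). That of *Slit2* was also lost with no correction between the libraries before clustering.

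P2-like neurons were higher in 4 and lower in 9 members (background 11.8% and 10.7%). Receptors for Slits were lowest here, *Robo1* at 3.62 and 5.14 (log2 difference -2.25, SE 0.21, edgeR adjusted p = 6.4e-07) and *Robo2* at 3.62 and 5.95 (log2 difference -2.39, SE 0.19, edgeR adjusted p = 1.2e-07), and so was *Efnb3* (-1.52 ± 0.21). *Ephb1* (-3.57 ± 1.10), *Epha3* (-2.76 ± 0.80), *Efnb1* (-1.10 ± 0.18), *Slit2* (-0.84 ± 0.15), *Efna5* (-0.65 ± 0.13) and *Efnb2* (-0.64 ± 0.16) made up the rest of the lower members. *Epha5* was at 365 and 500.1, above the other clusters within each library (0.87 ± 0.10). *Srgap2* (0.46 ± 0.12), *Srgap3* (0.41 ± 0.10) and *Slit3* (0.37 ± 0.12) were called higher by small amounts, and these 3 calls, with those of *Efnb2* and *Epha3*, were lost with no correction between the libraries before clustering, a setting that left 8 calls.

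P4-like neurons were higher in 6 and lower in 5 members (background 14.6% and 9.62%). *Efnb2* was at 38.9 and 38.9, with 17.3 and 19.2 in P1-like, 9.50 and 8.99 in P2-like and 3.49 and 6.36 in P3-like neurons (log2 difference 1.99, SE 0.15, edgeR adjusted p = 7.0e-08). *Robo2* was at 43.6 and 53.4 (log2 difference 1.97, SE 0.16, edgeR adjusted p = 1.1e-07), with *Robo1* at 18.5 and 43.5 (1.38 ± 0.18). *Ephb1* (3.37 ± 0.42) and *Efna1* (0.85 ± 0.24) were higher, and *Ephb6* (-1.73 ± 0.26), *Srgap1* (-0.66 ± 0.15), *Efna5* (-0.59 ± 0.14), *Slit3* (-0.47 ± 0.14) and *Epha5* (-0.37 ± 0.11) lower. The *Efna1* and *Slit3* calls were lost with DESeq2 (DESeq2 adjusted p = 0.064 and 0.055). That of *Slit3* was also lost with simulated doublets removed. These cells held more fibroblast RNA than the other clusters: *Col1a1* was at 376 and 162 CPM, against 10.9 to 19.0 in the rest, and *Dcn* at 285 and 104. With the neurons that carried stromal RNA left out, a setting chosen after seeing the data, the *Efnb2* difference was 2.10, that of *Robo2* 2.15 and that of *Ephb1* 4.12, all still called. *Efnb1*, which fibroblasts hold at 167 to 192, went from 1.01 ± 0.18 to 0.53 and was no longer called (edgeR adjusted p = 0.083).

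**Figure D5:**
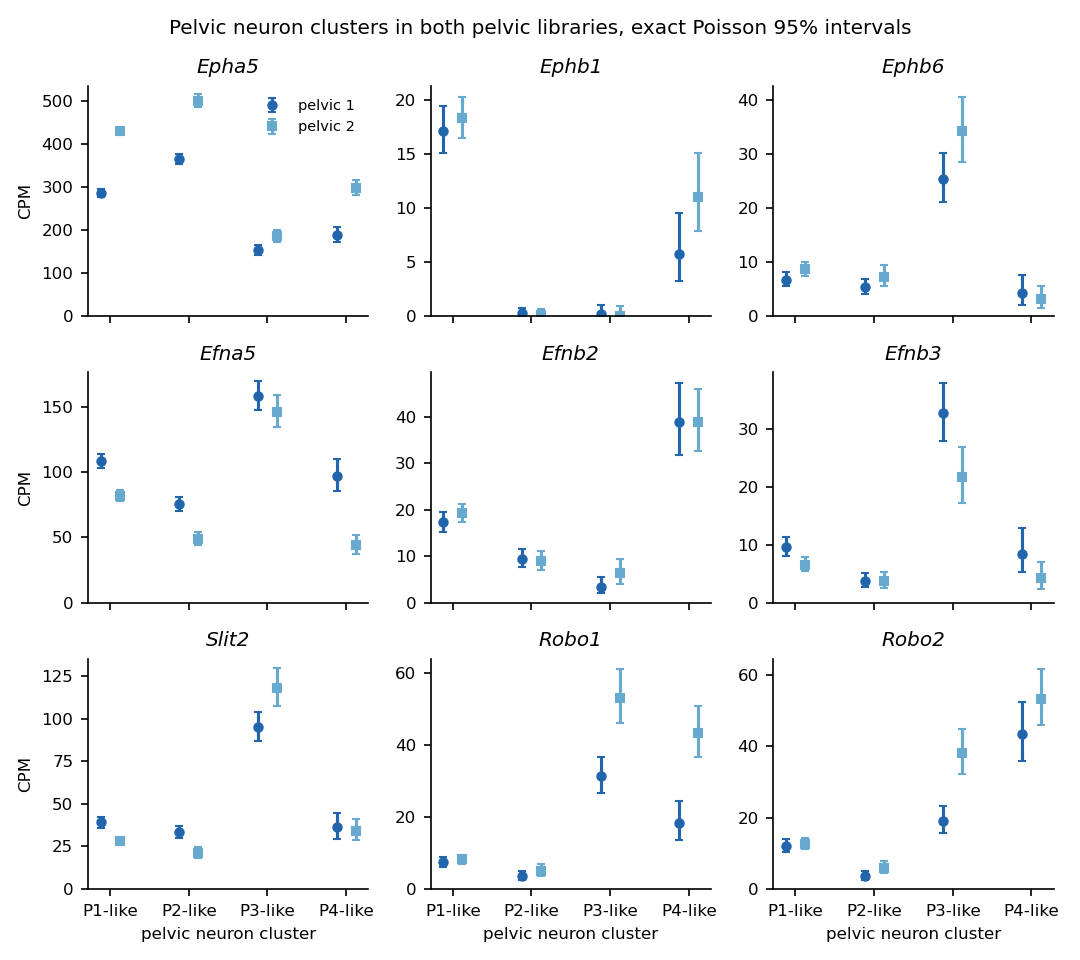
Levels of 9 members in the 4 named pelvic neuron clusters (x axis), in CPM from 0 (y axes differ), with circles for pelvic 1, squares for pelvic 2 and exact Poisson 95% intervals. *Ephb1* is seen in P1- and P4-like neurons, *Ephb6*, *Efnb3* and *Slit2* are highest in P3-like neurons (95.1 and 118 for *Slit2*), and *Efnb2* is highest in P4-like neurons in both libraries.

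The genes that pass these signals on were read from a list of 28 (exchange factors, adaptors, kinases and cleavage enzymes of Eph and Robo signalling, and other ligands and co-receptors), taken for their known roles. Between glia and neurons, 7 of 27 tested were higher and 13 lower in glia, against the same 32.2% and 39.4% background. The 4 largest differences on the glial side were *Flrt3* (3.58 ± 0.23), a co-receptor of Robo1, *Dag1* (3.00 ± 0.16), which encodes the Slit-binding dystroglycan, *Adam10* (1.70 ± 0.13), the protease that cleaves ephrins, and *Itsn1* (1.21 ± 0.12), an exchange factor that binds EphB2. On the neuronal side they were *Arhgef15* (-3.99 ± 0.29), an exchange factor below Eph receptors, *Dcc* (-3.91 ± 0.35), the netrin receptor that Robo1 can silence, the kinase *Pak1* (-3.52 ± 0.22) and the exchange factor *Vav3* (-3.43 ± 0.43). Of the same 27, 8 were higher and 14 lower in fibroblasts than in neurons, beside 33.9% and 39.9% of all genes. In endothelial cells 11 were higher and 16 lower (all genes 33% and 41.8%), and in mural cells 3 and 17 (all genes 27.8% and 37.8%). Against glia, fibroblasts were higher in 6 and lower in 9 (all genes 24% and 26.6%). Within the pelvic ganglion all 28 were tested: 4 were higher and 2 lower in P1-like neurons (all genes 7.91% and 5.58%), 7 were higher and 7 lower in P2-like neurons (all genes 11.8% and 10.7%), 3 were higher and 10 lower in P3-like neurons (all genes 12.2% and 12.4%) and 8 were higher and 2 lower in P4-like neurons (all genes 14.6% and 9.62%). Between pelvic and sympathetic neurons 5 were higher and 3 lower (all genes 10.4% and 8.33%).

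Cell states of the same lineages were not tested and are given by their levels. *Efnb1* had a median of 94.3 and a range of 81.1 to 131 CPM in cycling glia, beside a median of 140.2 in the glia class. The glia class is not free of dividing cells: a cluster of 221 cells in it had *Cenpa*, *Ccnb2* and *Cenpf* among its leading genes. *Ephb3* had a median of 18.5 and a range of 8.84 to 31.7 in cycling glia, beside 17.3 in the glia class, and *Ephb6* a median of 24.5 and a range of 15.4 to 33.9, beside 35.9. The ranges of cycling glia and of the glia class overlap for all 3. Myelinating Schwann cells reached 10 cells in 2 libraries only, 31 cells of pelvic 1 and 15 of the sphenopalatine library, and their values rest on few UMIs. *Ephb6* was at 63.2 (15 UMIs, exact Poisson 95% interval 35.4 to 104) in the first and 57.6 (6 UMIs, exact Poisson 95% interval 21.2 to 125) in the second, and both intervals reach into the 29.4 to 37.0 of the glia class. *Efnb1* was at 84.3 (20 UMIs, exact Poisson 95% interval 51.5 to 130.2) and 106 (11 UMIs, exact Poisson 95% interval 52.8 to 189), and *Epha5* at 46.4 (11 UMIs, exact Poisson 95% interval 23.2 to 83.0) in pelvic 1 and at 1 UMI in the sphenopalatine cells. In macrophages, *Epha5* was the only member besides *Srgap2* with a median of at least 10, at 3.45 to 19.6, in cells that held the neuronal markers at 1.23% to 9.69% of their neuronal level.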

How the data were processed

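Single-cell suspensions of ganglia were profiled with 10x 3′ chemistry in 6 libraries; the gene that drives Cre in these mice is not reported here. The deposited matrices hold raw UMI counts per gene and cell, which the authors made with Cell Ranger 6.0.1 against the mm10 mouse genome, in the filtered form with 1 barcode per called cell; no correction for free RNA is described. The 32 members and the list of 28 partner genes were chosen with earlier results of these data known. All 32 members are named, and of the partners those with the largest differences between glia and neurons, at most 4 in each direction.

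Cells with more than 1500 and fewer than 11000 genes and under 15% mitochondrial UMIs were kept. Neurons were cells whose mean sctransform 0.4.2 value over *Stmn2*, *Stmn3*, *Gap43* and *Tubb3* exceeded 3 with a mean below 1.15 over 5 glial genes. Other cells (3000 variable genes, 50 components, 20 neighbours) were clustered with the Louvain method at a resolution of 1.0, and pelvic neurons at 0.3 after a correction for library, both without the members and partners, and clusters were named by fixed markers. Rebuilt clusters can differ in membership from those of the study. No doublets were removed beyond neurons with glial genes; removing simulated doublets was an alternative.

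UMI counts were summed per library and class (at least 10 cells) and tested with the quasi-likelihood test of edgeR 4.0.16 in R 4.3.3 after TMM scaling and filterByExpr. Terms were the library for classes and pelvic clusters, and the round for pelvic against sympathetic neurons; p-values were adjusted over all genes by Benjamini-Hochberg, with 0.05 as the threshold. DESeq2 1.42.0, other size factors, no filter, no library or round term and leaving out libraries were tried as alternatives. The tests were checked on simulated counts with the same dispersion for all genes and no effect of round or ganglion. Intervals are exact Poisson 95% intervals and cover counting error only. Promoters are from RefSeq, GRCm38.p6.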

Additional observations from a re-analysis of the deposited data

Results flagged for a closer look

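A library was marked where, among the 6 values of a gene in a cell class, the gap to its nearest neighbour took up more of the whole range than Dixon's 95% critical value for 6 values. The 92 sets of 6 values whose highest value was at least 10 CPM were looked at and 7 were marked, while chance marks about 1 in 20. In neurons, the sphenopalatine library was the highest for *Epha7*, at 78.7 CPM with the other 5 at 1.76 to 7.08, and for *Slit2*, at 118 with the others at 13.7 to 45.1. These are pooled neurons, and the P3-like pelvic neurons alone held *Slit2* at 95.1 and 118. In fibroblasts, the pelvic 2 library was the highest for 3 genes of the Slit and Robo families: *Slit3* at 44.0 (others 9.16 to 18.0), *Robo1* at 17.0 (2.80 to 7.37) and *Robo2* at 48.2 (7.13 to 21.0). The stellate library was the lowest for *Ephb2* in fibroblasts, at 24.4 (66.6 to 86.2), and pelvic 2 the highest for *Efna2* in mural cells, at 20.9 (4.10 to 10.0). Most fibroblasts of the stellate and pelvic 2 libraries fell in different clusters, and whether this bears on the fibroblast values was not tested.

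*Efnb3* had opposite signs of the difference between glia and pooled neurons. Glia were above neurons by a mean of 15.6 CPM over the pelvic libraries (17.3 in pelvic 1 and 13.9 in pelvic 2), and the difference was -8.56 in the stellate, -12.1 in the coeliac and -7.91 in the lumbar library. In the sphenopalatine library it was 14.2. The pelvic sign is that of pooled neurons. In the noradrenergic P3-like ones *Efnb3* was at 32.7 in pelvic 1 and 21.7 in pelvic 2, no lower than in glia of the same library. The difference between the groups of ganglia was not tested.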

How the results depend on the processing

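Counts of members called were recomputed under 104 alternatives, of which 98 stayed within 1.5 times the count reported and 6 did not. With no correction between libraries before clustering, P2-like neurons had 8 calls in place of 13. Between pelvic and sympathetic neurons, 11 calls became 18 with no filter on low counts, 3 with no term for the round, and 3 to 15 on leaving out each library. With the round as a term, the fits without the stellate and without the pelvic 1 library both compared pelvic 2 with coeliac and lumbar neurons. The fit without pelvic 2 compared pelvic 1 with stellate neurons. These fits are therefore not independent checks and have little power, and the cause of the changes was not tested further. On leaving out each library in turn, 22 to 24 members were called between glia and neurons, 22 to 24 between fibroblasts and neurons, 25 to 26 between endothelial cells and neurons, 19 to 21 between mural cells and neurons and 16 to 20 between fibroblasts and glia. Without the library as a replicate block these counts were 22, 22, 24, 21 and 16 in the same order. Between ganglia the replicate numbers pair no libraries, since only the pelvic ganglion has a number 2, and the round was the term of that fit. For the single members called, 1959 values were recomputed. Of these, 1859 kept their direction and their side of the threshold or, where no test could be run, moved by less than the error. Another 87 lost the call and 13 moved by more than the error, with no change of direction. The untested values are those of each pelvic library alone, and the error was the SD of these same values. That limit widens as the libraries disagree, so the untested values say little about stability. Neurons thinned to 4000 UMIs left 4 members with their highest share in the sphenopalatine library in place of 5. Removing cells with many simulated doublets among their neighbours (2786 cells, 13.0%) or, as a setting chosen after seeing the data, 327 neurons with stromal RNA moved no count by more than 1.5 times. In simulated counts, 94 of 100 genes changed by 2-fold were recovered between glia and neurons. For the P3-like cluster it was 45 of 100, and between pelvic and sympathetic neurons 43 of 100. At 4-fold, 98 to 100 were recovered. These counts were drawn from a single mean profile with a dispersion of 0.05 and no effect of round or ganglion. Only well-counted genes were changed, so the shares do not give the recovery in the real data.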

Other observations

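Within the endothelial class, 2 clusters made without the 32 genes differed in several members. The larger, of 668 cells, was led by *Gpihbp1*, *Plvap* and *Egfl7*, and the smaller, of 57 cells, by *Cldn5*, *Eln* and *Gkn3*. Of the smaller cluster, 41 cells came from pelvic 1 and 11 from the sphenopalatine library, both of the first round, so levels are given within these. *Efna1* was at 183 and 187 CPM in the larger cluster of pelvic 1 and sphenopalatine, and at 516 and 358 in the smaller. *Efnb2*, the textbook arterial ligand, was at 64.9 and 65.1 in the larger and at 228 and 235 in the smaller. *Efna5*, a mostly neuronal member, was at 4.28 and 1.25 in the larger and at 53.1 and 99.9 in the smaller. *Robo4* went the other way, with 189 and 207 in the larger and 54.8 and 70.5 in the smaller, and *Efnb1* did so too, with 44.3 and 31.3 against 3.54 and 11.8. Values of the smaller cluster rest on only 41 and 11 cells, and those of *Efnb1* on very few UMIs. *Ephb4* was at 103 and 107 against 69.0 and 118. No test was run between these clusters.

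Mural cells fell into 3 clusters, of 344 cells led by *Rgs5*, a pericyte marker, and of 231 and 40 cells led by *Acta2*, the actin of smooth muscle. Over all cells, *Slit3* was at 23.7 CPM (49 UMIs) in the first and at 76.1 and 73.2 in the others. Within pelvic 1, the library with the most mural cells, it was at 5.90 on 3 UMIs in the first and at 64.2 and 84.5 in the others. *Epha3* was at 30.9, 33.5 and 98.9 over all cells in the same order, and at 51.2, 52.0 and 65.0 within pelvic 1. These clusters differ in the libraries they hold, and no test was run.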
